A study of Mus musculus with 3 samples.

Results

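The genes described here encode early transcription factors of the oocyte, together with an mRNA-binding protein of the same cells: Sohlh1, Sohlh2, Figla, Lhx8, Nobox, Foxo3 and Ybx2. RNA levels were taken from mouse fetal testes, labelled as male gonads of embryonic day 14.5. A probe belonged to a gene when the transcript accession on the array matched that gene's symbol in a RefSeq gene table. This gave 7 probes of 6 of the 7 genes, out of 41174 probes and 16531 named genes on the array. Sohlh1 had no matched probe and is not analysed here. The embryos were of the mouse line MCH, and 3 genotypes had 2 arrays each. The double knockout lacked both Cyp26b1 and Stra8 (Cyp26b1-/-/Stra8-/-), the Cyp26b1 knockout lacked Cyp26b1 and was wild type for Stra8, and the wild type carried both genes. Whole gonads were used, so a smaller number of cells of a type and less RNA per cell cannot be told apart.

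In the fetal ovary, germ cells enter meiosis and then become oocytes that gather into primordial follicles, and most of the factors listed here act in the second of these steps or in the follicles it forms. In the fetal testis, the enzyme encoded by Cyp26b1 degrades retinoic acid, and male germ cells stay out of meiosis at this age. Stra8 is switched on by retinoic acid and is needed for the meiotic programme. The comparisons therefore address which oocyte factors differ in a male gonad without Cyp26b1, and which of them differ again when Stra8 is missing too.

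All levels below are on a log2 scale, set against the 75th percentile of the same array, so 0 means a spot as bright as that percentile, and each step of 1 doubles the signal. The 75th percentile of the unscaled signals was 1246 and 1441 on the double knockout arrays, 997 and 1136 on the Cyp26b1 knockout arrays and 1300 and 1536 on the wild-type arrays. Between 62.6% and 69.2% of spots were well above background. The arrays of each genotype lay on a slide of their own, and the Cyp26b1 knockout slide was scanned on another day than the other 2, so slide and genotype cannot be told apart. The probes of the 2 targeted genes were read as a possible check of the labels. The Cyp26b1 probe stood at 4.06 and 3.87 in double knockout, 4.23 and 3.78 in Cyp26b1 knockout and 3.99 and 3.79 in wild type, and passed no test. The Stra8 probe stood at 5.93 and 6.09 in the arrays labelled double knockout, 7.15 and 6.99 in Cyp26b1 knockout and 3.69 and 2.37 in wild type. It was thus 7.91-fold higher in double knockout than in wild type (limma adjusted p = 0.00381). The sources do not place either probe inside or outside the deleted stretch, so neither one checks the labels, and every genotype named below is that of the label.

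Sohlh2, Figla and Lhx8 are the members that differed most between genotypes, and the 250 bases before their start sites are shown for that reason. The sequences are those of RefSeq on build GRCm38.p6, written 5′ to 3′ on the strand of the gene, with capitals for E-boxes. The E-box, CANNTG, is the sequence that bHLH factors such as SOHLH2 and FIGLA bind.
Sohlh2, chr3:55181794-55182043, plus strand: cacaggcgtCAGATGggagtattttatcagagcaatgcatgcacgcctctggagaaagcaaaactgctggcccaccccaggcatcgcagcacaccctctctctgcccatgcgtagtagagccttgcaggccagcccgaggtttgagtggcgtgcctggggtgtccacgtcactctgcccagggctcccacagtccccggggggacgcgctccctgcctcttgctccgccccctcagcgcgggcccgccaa
Figla, chr6:86016941-86017190, plus strand: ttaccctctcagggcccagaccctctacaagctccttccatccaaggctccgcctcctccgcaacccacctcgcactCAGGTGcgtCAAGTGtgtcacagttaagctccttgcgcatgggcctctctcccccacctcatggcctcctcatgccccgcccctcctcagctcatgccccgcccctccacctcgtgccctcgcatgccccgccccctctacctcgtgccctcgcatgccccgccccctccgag
Lhx8, chr3:154330561-154330810, minus strand: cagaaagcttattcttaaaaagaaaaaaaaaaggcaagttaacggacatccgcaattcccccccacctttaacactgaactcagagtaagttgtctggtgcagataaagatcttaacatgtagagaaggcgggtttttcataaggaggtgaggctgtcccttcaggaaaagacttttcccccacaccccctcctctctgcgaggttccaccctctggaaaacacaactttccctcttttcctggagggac

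Motifs were searched on both strands from 250 bases before to 50 bases after each start site. All 7 genes matched the RefSeq promoter table, with 8 windows because Ybx2 had 2. Figla had E-boxes beginning at -173 and -164 and at 9 and 22 bases after the start, Sohlh2 had 1 at -241, and the Lhx8 window had none of the motifs searched. An E-box stood in 5 of the 8 windows, against 72.3% of 32851 windows of the same length in the table. The NOBOX element TAATTG (8.0% of all windows), the LIM-homeodomain core TAATTA (5.29%) and the forkhead motif TGTTTAC (3.65%) were in none of the 8. The nuclear receptor half-site AGGTCA, to which retinoic acid receptors bind in pairs, was in 2 of the 8, those of Sohlh1 and Nobox, and in 16.3% of all windows. The half-site of Sohlh1, at -215, overlaps an E-box.

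Sohlh2 encodes a bHLH factor that acts with SOHLH1 in oocytes of primordial follicles and also in spermatogonia. Its probe stood at -0.17 and 0.29 in double knockout, 1.90 and 1.40 in Cyp26b1 knockout and -2.04 and -2.59 in wild type. No 2 genotypes overlapped, the Cyp26b1 knockout was highest and the wild type lowest. In double knockout it rose against wild type by 2.37 ± 0.24 (log2 difference ± SE, n = 2 arrays per genotype), a 5.18-fold difference with a limma adjusted p of 0.00220. In Cyp26b1 knockout it rose by 3.97 ± 0.24, or 15.6-fold, with a limma adjusted p of 7.43e-05. Among 12523 named genes well above background on all 4 arrays compared, this was the fourth largest rise, at rank 4. The double knockout lay below the Cyp26b1 knockout, by a log2 difference of -1.59 ± 0.24 (limma adjusted p = 0.00197), so Sohlh2 was intermediate in double knockout and differed from both other genotypes.

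Figla encodes the bHLH factor that switches on the zona pellucida genes of the oocyte's coat. It stood at -0.89 and -1.05 in double knockout, -1.26 and -0.95 in Cyp26b1 knockout and -2.62 and -3.05 in wild type. The arrays of the 2 knockouts overlapped, and all 4 lay above both wild-type arrays. Figla rose by 1.87 ± 0.18 in double knockout (3.66-fold, limma adjusted p = 0.00185) and by 1.73 ± 0.18 in Cyp26b1 knockout (3.33-fold, limma adjusted p = 0.000286). With the first of 2 normexp background corrections tried, both calls were lost, at 0.86 in double knockout (adjusted p = 0.182) and 0.69 in Cyp26b1 knockout (adjusted p = 0.130). As scaled here, the rises were at rank 46 of 12350 and at rank 130 of 12523 named genes. The double knockout minus the Cyp26b1 knockout was 0.14, with a 95% interval of -0.28 to 0.55 (limma adjusted p = 0.558), and its sign turned with the authors' scaling, that of the deposited value table (-0.17), and without Cyp26b1 knockout replicate 1 (-0.016).

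Lhx8 encodes a LIM-homeobox factor that oocytes need to survive past the primordial follicle. The brighter of its 2 probes stood at -0.77 and -0.65 in double knockout, -3.66 and -2.23 in Cyp26b1 knockout and -4.18 and -4.29 in wild type. No 2 genotypes overlapped, and here the double knockout was highest. It rose by 3.52 ± 0.39 in double knockout against wild type (11.5-fold, limma adjusted p = 0.00306), at rank 4 of 12350 named genes. Against the Cyp26b1 knockout, the double knockout was higher by 2.23 ± 0.39 (4.69-fold, limma adjusted p = 0.00364), at rank 16 of 12378. Lhx8 was thus the only member measured that was higher in double knockout than in Cyp26b1 knockout and passed that test.

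The rise of Lhx8 in Cyp26b1 knockout against wild type was 1.29 ± 0.39 (2.45-fold, limma adjusted p = 0.0270) and rested on arrays that lay 1.43 apart. Without Cyp26b1 knockout replicate 1 it was 2.01, and without replicate 2 it was 0.57. Without wild-type replicate 1 or 2, without the filter on dim probes or without the intensity trend, the rise had limma adjusted p values of 0.0821, 0.103, 0.0610 and 0.0583. The second Lhx8 probe was dimmer, at -3.54 and -3.33 in double knockout, -6.42 and -4.32 in Cyp26b1 knockout and -7.33 and -7.53 in wild type. It was well above background on both double knockout arrays, on 1 Cyp26b1 knockout array and on no wild-type array. By this probe Lhx8 was at least 5.76-fold higher in double knockout than in wild type. In Cyp26b1 knockout the same calculation gave 1.51-fold. That mean includes the array not well above background, so this value is no strict lower bound. The measured differences from wild type, which use its dim signals, were 3.995 and 2.06 (limma adjusted p = 0.00806 and 0.0219). The double knockout minus the Cyp26b1 knockout was 1.94 ± 0.60 by this probe (limma adjusted p = 0.0322), a call lost with the authors' scaling (1.63, adjusted p = 0.0556) and without double knockout replicate 1 or 2 (adjusted p = 0.0774 and 0.106) or Cyp26b1 knockout replicate 1 (0.88, adjusted p = 0.0543). Its calls against wild type were lost without either wild-type array (adjusted p = 0.0501 and 0.0611 in double knockout, 0.0684 and 0.0883 in Cyp26b1 knockout). Both probes gave the genotypes the same order.

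Nobox encodes a homeobox factor that acts in oocytes of primordial and growing follicles. It stood at -3.08 and -3.08 in double knockout, -3.40 and -2.74 in Cyp26b1 knockout and -3.44 and -3.42 in wild type. As scaled here, both knockouts lay above wild type on every array. The difference was 0.35 in double knockout (95% interval -0.17 to 0.86) and 0.36 in Cyp26b1 knockout (-0.15 to 0.88). Neither difference passed the test (limma adjusted p = 0.338 and 0.204). The second of these passed it without Cyp26b1 knockout replicate 1 (0.69, limma adjusted p = 0.0180) and with the second normexp correction (0.43, limma adjusted p = 0.0423). With the first normexp correction, both differences from wild type turned negative. Before scaling, the Cyp26b1 knockout signals of Nobox (94.5 and 170.1) overlapped those of wild type (119.7 and 143.5). The unscaled double knockout signals (147.4 and 169.8) lay above wild type. The double knockout minus the Cyp26b1 knockout was -0.013, with a 95% interval of -0.53 to 0.50.

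**Figure D1:**
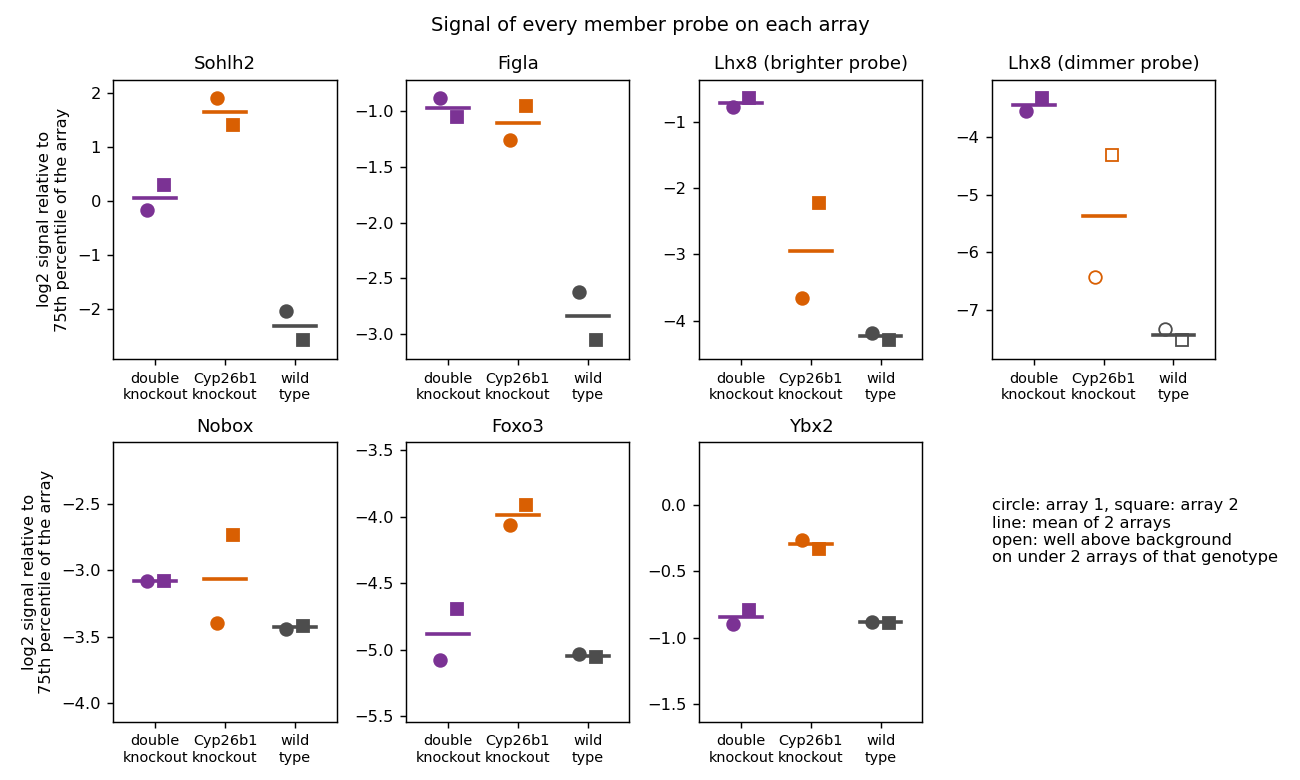
Log2 level against the array's 75th percentile (vertical axes, each panel with its own range) of every matched probe, with 2 arrays in double knockout, Cyp26b1 knockout and wild type. Sohlh2 was highest in Cyp26b1 knockout (1.90 and 1.40) and Lhx8 in double knockout (-0.77 and -0.65), while Figla stood alike in both knockouts and lower in wild type (-2.62 and -3.05).

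Foxo3 encodes the forkhead factor that keeps primordial follicles dormant and that KIT, PI3K and AKT send out of the nucleus when a follicle is activated. Many other cell types express it as well. Its probe was dim but well above background on all 6 arrays, at -5.07 and -4.69 in double knockout, -4.06 and -3.91 in Cyp26b1 knockout and -5.03 and -5.05 in wild type. The Cyp26b1 knockout arrays lay above the others, which overlapped. Foxo3 rose by 1.06 ± 0.22 in Cyp26b1 knockout against wild type (2.08-fold, limma adjusted p = 0.00534). With the first normexp correction this difference turned negative. The second correction could not test the probe, which lost its spot to the local background filter on at least 1 array. The double knockout minus wild type was 0.16, with a 95% interval of -0.35 to 0.67 (limma adjusted p = 0.670). The double knockout lay below the Cyp26b1 knockout, by -0.90 ± 0.22 (limma adjusted p = 0.0132), a call lost without double knockout replicate 1 (adjusted p = 0.0620) or Cyp26b1 knockout replicate 2 (adjusted p = 0.0602).

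Ybx2 encodes a Y-box protein that binds and stabilises stored mRNAs in oocytes and in male germ cells. It stood at -0.90 and -0.79 in double knockout, -0.27 and -0.33 in Cyp26b1 knockout and -0.88 and -0.89 in wild type. The order was that of Foxo3, with a smaller difference and closer replicates. Ybx2 rose by 0.58 ± 0.10 in Cyp26b1 knockout against wild type (1.5-fold, limma adjusted p = 0.00214). The double knockout minus wild type was 0.037, with a 95% interval of -0.19 to 0.27 (limma adjusted p = 0.834), and the double knockout minus the Cyp26b1 knockout was -0.55 ± 0.10 (limma adjusted p = 0.00380). Both calls were lost with the first normexp correction (0.36, adjusted p = 0.413, and -0.42, adjusted p = 0.347). Before scaling, the Ybx2 signals were 668 and 831 in double knockout, 829 and 902 in Cyp26b1 knockout and 706 and 830 in wild type, so the genotypes overlapped until each array was set against its own 75th percentile. The unscaled Foxo3 signals did not overlap between Cyp26b1 knockout (59.6 and 75.6) and either double knockout (37.0 and 55.7) or wild type (39.7 and 46.2).

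**Figure D2:**
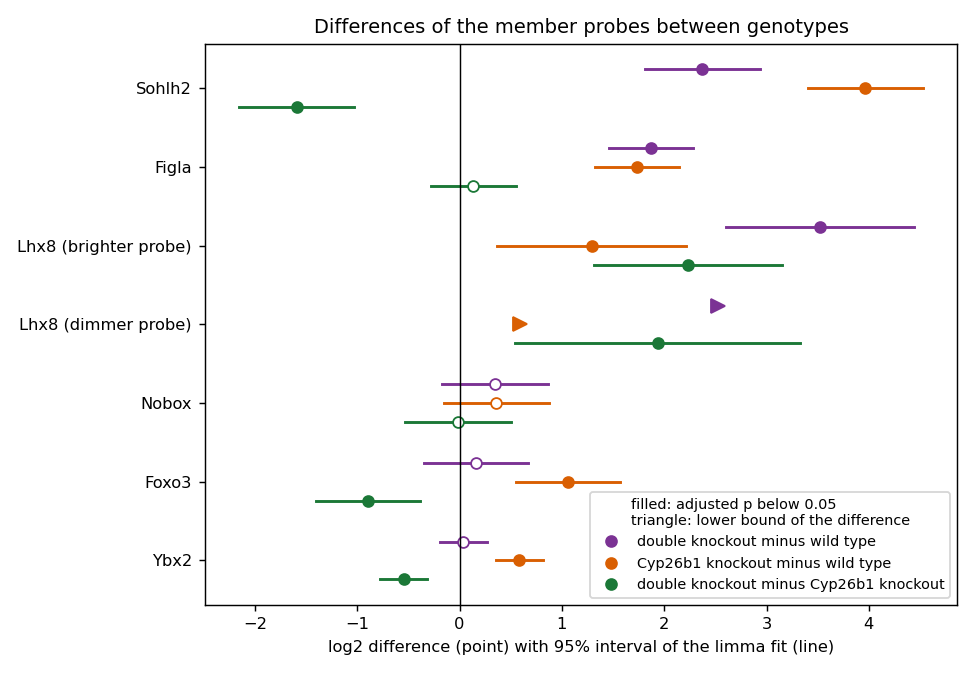
Log2 difference of each matched probe (horizontal axis) in the 3 comparisons, with points for the estimate, lines for its 95% interval and filled points for an adjusted p below 0.05. Triangles mark bounds against wild type for the dimmer Lhx8 probe, whose wild-type signal was not well above background. The triangle for Cyp26b1 knockout minus wild type is no strict lower bound, since only 1 Cyp26b1 knockout array was well above background. In double knockout minus Cyp26b1 knockout, Sohlh2 (-1.59) and Lhx8 (2.23) lie on opposite sides of 0.

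Over the 6 members tested, 3 rose and none fell in double knockout against wild type, where 6.73% of 13290 named genes tested rose and 6.33% fell. In Cyp26b1 knockout against wild type 5 of the 6 rose and none fell, where 23.8% of named genes rose and 30.3% fell. In double knockout against Cyp26b1 knockout 1 member rose and 3 fell, where 29.2% of named genes rose and 18.3% fell. The median log2 difference of the 6 members was 1.11, 1.17 and -0.28 in these 3 comparisons, while that of all genes was 0.026, -0.065 and 0.11. Every member was well above background on all 6 arrays by its brighter probe. The first 2 comparisons share the wild-type arrays.

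The number of calls over the whole array was large, at 3194, 14818 and 12754 of 27864 probes. Its split between rises and falls depended on the scaling, which in the deposited value table shifted all log2 differences by -0.20, 0.10 and -0.30. The share of calls that were rises was 43.7%, 47.3% and 51.2% as scaled here and 12.3%, 56.8% and 19.4% with the authors' scaling, while the normexp background correction gave 59.9% in double knockout against wild type. The counts of members that rose or fell were the same with the authors' scaling in all 3 comparisons. With that normexp correction, the first of 2 tried, Foxo3 and the brighter Lhx8 probe turned to -0.58 and -0.11 in Cyp26b1 knockout against wild type, 1 of 6 members was called there, and 2 of 6 were called in each of the other comparisons.

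**Figure D3:**
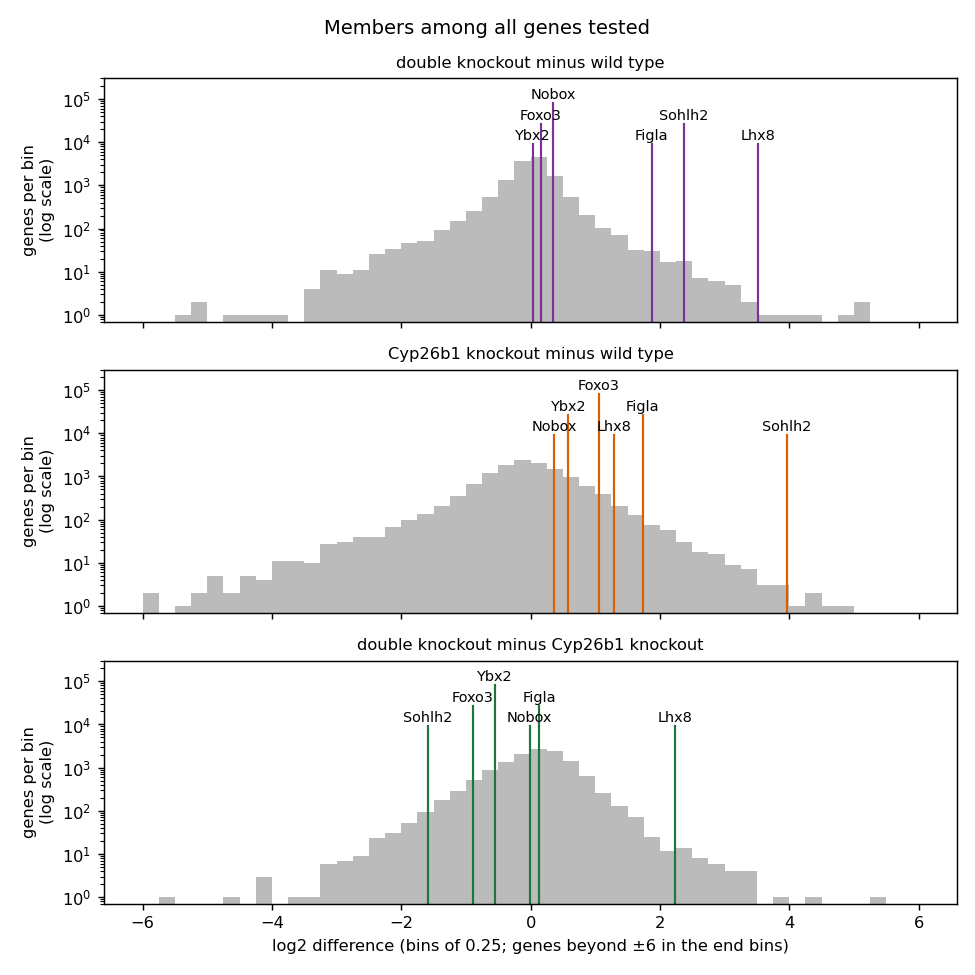
Number of named genes (vertical axis, log scale) by log2 difference (horizontal axis, bins of 0.25) in the 3 comparisons, with a coloured line at each member's difference. Lhx8 (3.52) and Sohlh2 (2.37) lie in the upper tail in double knockout minus wild type, and Sohlh2 (3.97) does so in Cyp26b1 knockout minus wild type, while Ybx2 and Nobox lie inside the bulk of the genes.

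Genes that work with the members were read as lists, beside the shares of all named genes given above. Factors of the bHLH class such as FIGLA can pair with E proteins, a family encoded by Tcf3, Tcf4 and Tcf12, and Id proteins block pairs of this kind. Of these 7 genes none passed the test in double knockout against wild type, 1 rose and 3 fell in Cyp26b1 knockout against wild type, and 4 rose and 1 fell in double knockout against Cyp26b1 knockout (median log2 differences 0.073, -0.22 and 0.29). In double knockout against wild type 2 fell with the authors' scaling. Id2 stood at 3.0 and 3.1 in double knockout, 2.2 and 1.9 in Cyp26b1 knockout and 3.1 and 3.0 in wild type, and fell by 0.98 ± 0.11 in Cyp26b1 knockout against wild type (limma adjusted p = 0.000409). It was 0.99 higher in double knockout than in Cyp26b1 knockout (limma adjusted p = 0.000678). A second, dimmer Id2 probe gave -0.54 and 0.48 in these comparisons (limma adjusted p = 0.00512 and 0.0104). The brightest Tcf4 probe fell by 0.95 in Cyp26b1 knockout (limma adjusted p = 0.000166), another fell by 1.11, and the third rose by 0.67, so the direction of Tcf4 is uncertain. In double knockout the brightest Tcf4 probe differed from wild type by -0.25 (limma adjusted p = 0.0950), the probe that fell by 1.11 gave -0.45 (limma adjusted p = 0.0431) and the third -0.60 (limma adjusted p = 0.0824).

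Of the LIM-homeobox genes other than Lhx8 and their LDB cofactors, 11 of 13 were tested. Among them 2 rose and 1 fell in double knockout against wild type, 5 rose and 5 fell in Cyp26b1 knockout against wild type, and in double knockout against Cyp26b1 knockout 5 rose and 3 fell. The median log2 differences were -0.18, 0.29 and 0.16, and with genes known only as a bound set to that bound the second was 0.15. With the authors' scaling the last count was 3 risen and 5 fallen, and the first was 2 risen and 5 fallen. With the first normexp correction 1 rose and 1 fell in Cyp26b1 knockout against wild type. Lhx2 stood at 0.16 and 0.058 in double knockout, -0.65 and -0.57 in Cyp26b1 knockout and -1.17 and -1.10 in wild type, and rose by 1.25 ± 0.10 in double knockout against wild type (limma adjusted p = 0.000949). Its genotypes had the order of those of Lhx8. Lhx5 fell by 2.68 in Cyp26b1 knockout against wild type (limma adjusted p = 0.000919), with 1 of 2 Cyp26b1 knockout arrays well above background. Lhx9, a gene of the gonad's own somatic cells, fell by 0.82 in Cyp26b1 knockout by its brightest probe (limma adjusted p = 0.000375) and rose by 0.76 by its other probe, so its direction is uncertain. Ldb1, the cofactor through which LIM-homeodomain proteins assemble, was lower in double knockout than in Cyp26b1 knockout, by a log2 difference of -0.84 ± 0.10 (limma adjusted p = 0.000819).

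All 20 genes listed for the FOXO family and the KIT and PI3K pathway were tested. The list also holds genes that FOXO factors activate, so not all of it lies upstream of FOXO3. Of the 20, 3 rose and 2 fell in double knockout against wild type (2 and 4 with the authors' scaling). In Cyp26b1 knockout against wild type 5 rose and 8 fell (2 and 5 with the first normexp correction). In double knockout against Cyp26b1 knockout 8 rose and 2 fell (5 and 4 with the authors' scaling). The median log2 differences were 0.098, -0.096 and 0.16. Kit, the receptor at the head of the pathway, stood at 0.67 and 1.02 in double knockout, 0.49 and 0.39 in Cyp26b1 knockout and -0.67 and -0.58 in wild type. It rose by 1.47 ± 0.13 in double knockout against wild type (limma adjusted p = 0.00140). Foxo6 fell by 1.42 ± 0.13 in Cyp26b1 knockout against wild type (limma adjusted p = 0.000183), and the kinase gene Akt2 rose there by 0.96 ± 0.10 (limma adjusted p = 0.000301). Bcl6, which FOXO factors activate, stood at 0.15 and 0.33 in double knockout and at -0.99 and -0.82 in Cyp26b1 knockout, a difference of 1.14 ± 0.11 (limma adjusted p = 0.000441).

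The Y-box family and other mRNA storage proteins gave 8 tested genes. None passed the test in double knockout against wild type, 5 rose and 3 fell in Cyp26b1 knockout against wild type, and 2 rose and 4 fell in double knockout against Cyp26b1 knockout (median log2 differences 0.028, 0.57 and -0.47). With the authors' scaling the last count was none risen and 5 fallen, and 1 fell in double knockout against wild type. The first normexp correction left 2 risen and 1 fallen in Cyp26b1 knockout against wild type. Lsm14b, an RNA-granule protein of oocytes, stood at -2.23 and -2.59 in double knockout, -1.42 and -1.82 in Cyp26b1 knockout and -3.01 and -2.98 in wild type. It rose by 1.37 ± 0.18 in Cyp26b1 knockout (limma adjusted p = 0.000800), and the 0.58 of double knockout against wild type did not pass the test (limma adjusted p = 0.0832). Its relative Lsm14a rose by 0.79 ± 0.10 in Cyp26b1 knockout (limma adjusted p = 0.000672) and was lower in double knockout than in Cyp26b1 knockout, by a log2 difference of -0.64 ± 0.10 (limma adjusted p = 0.00228).

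As scaled here, genes that act in the growing oocyte downstream of the members were, for the most part, lower in Cyp26b1 knockout or not measurable. Of 19 genes listed, 17 had a probe and 12 were tested; Bmp15, Nlrp5, Oosp1, Rfpl4 and Zp2 were well above background on none of the 6 arrays. None rose and 4 fell in double knockout against wild type (7 with the authors' scaling). In Cyp26b1 knockout against wild type 1 rose and 8 fell, where 30.3% of named genes fell. With the first normexp correction 1 rose and 3 fell there. The double knockout had 2 genes higher and 4 lower than the Cyp26b1 knockout. The median log2 differences were -0.68, -1.07 and 0.21.

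Oas1d, an oligoadenylate synthetase of the oocyte, stood at -5.43 and -6.12 in double knockout, -4.74 and -4.61 in Cyp26b1 knockout and -1.54 and -1.22 in wild type. It was not well above background in double knockout, and was at least 18.4-fold lower there than in wild type. Its measured difference was -4.40 (limma adjusted p = 0.000289). In Cyp26b1 knockout Oas1d fell by 3.30 ± 0.26 (limma adjusted p = 0.000128). Padi6, a protein of the oocyte's cytoplasmic lattices, fell by 3.92 ± 0.34 in Cyp26b1 knockout (limma adjusted p = 0.000172), with 1 of the 2 Cyp26b1 knockout arrays well above background. The gene that rose in Cyp26b1 knockout was Dnmt1, the maintenance DNA methyltransferase that all dividing cells use. Dnmt1 stood at 1.57 and 1.57 in double knockout and at 2.44 and 2.38 in Cyp26b1 knockout, a difference of -0.85 ± 0.09 (limma adjusted p = 0.000507).

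Other factors and cofactors of oocyte transcription gave 4 tested genes of 6 listed. None passed the test in double knockout against wild type (2 fell with the authors' scaling). All 4 fell in Cyp26b1 knockout against wild type, or 2 with the first normexp correction. In double knockout against Cyp26b1 knockout 3 rose, or 1 with either the authors' scaling or that correction. The median log2 differences were -0.23, -0.85 and 0.54. Kdm1b, a histone demethylase of the oocyte, stood at 2.47 and 2.46 in double knockout, 1.42 and 1.54 in Cyp26b1 knockout and 2.53 and 2.77 in wild type. It fell by 1.17 ± 0.10 in Cyp26b1 knockout against wild type (limma adjusted p = 0.000186) and was 0.98 higher in double knockout than in Cyp26b1 knockout (limma adjusted p = 0.000580). The brighter Sub1 probe fell by 0.85 in Cyp26b1 knockout (limma adjusted p = 0.000441), while the other probe of that transcription cofactor gave 0.0053. The brighter probe's -0.28 in double knockout against wild type did not pass the test (limma adjusted p = 0.102).

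**Figure D4:**
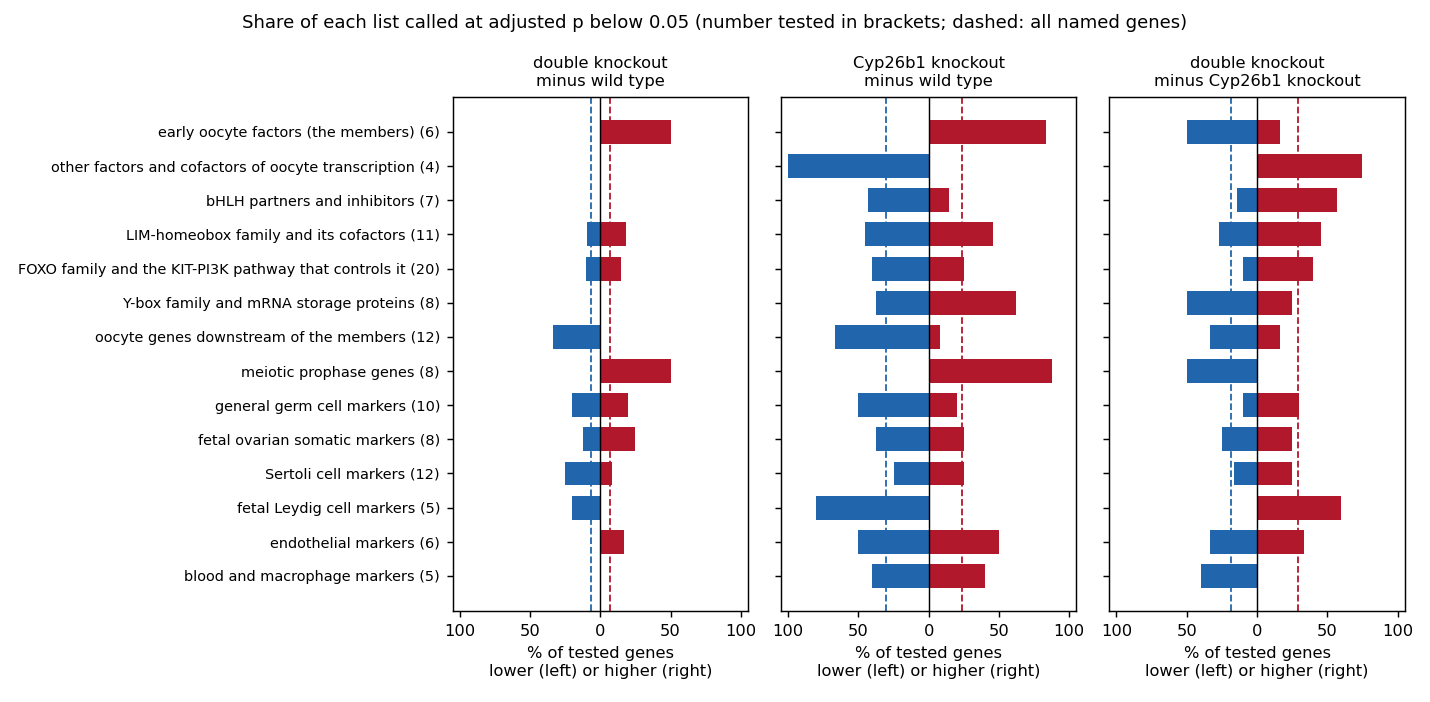
Percentage of the tested genes of each list (rows, with the number tested) called higher (red, to the right) or lower (blue, to the left) in the 3 comparisons, with dashed lines for all named genes. The members rose in Cyp26b1 knockout minus wild type (5 of 6) as the meiotic prophase genes did (7 of 8, the targeted gene Stra8 among them), while 8 of 12 downstream oocyte genes fell there. With the first normexp correction these counts were 1, 5 and 3.

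The meiotic genes and the cell type markers moved as follows beside the members. Of 8 meiotic prophase genes, 4 rose in double knockout against wild type (3 rose and 2 fell with the authors' scaling), 7 rose in Cyp26b1 knockout against wild type, and 4 fell in double knockout against Cyp26b1 knockout, or 6 with the authors' scaling (median log2 differences 0.43, 1.54 and -0.46). The 8 include the targeted gene Stra8, which is counted among the calls of all 3 comparisons (2.98, 4.04 and -1.06). Its probe is not placed relative to the deleted stretch, so its part in these counts is no readout of meiosis. Rec8, a cohesin of meiotic chromosomes, stood at 4.78 and 5.08 in double knockout, 4.84 and 4.42 in Cyp26b1 knockout and 1.76 and 1.98 in wild type, so the knockouts overlapped as those of Figla did. Msh5, a crossover protein, stood at -4.61 and -4.60 in double knockout, -2.11 and -1.72 in Cyp26b1 knockout and -4.17 and -4.16 in wild type, and was high in Cyp26b1 knockout alone, as Foxo3 and Ybx2 were.

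Germ cell markers were present on every array, with 10 of 12 genes matched and all 10 well above background on all 6 arrays. Their summed linear level, relative to the 75th percentile, was 64.1 and 78.2 in double knockout, 72.9 and 56.9 in Cyp26b1 knockout and 75.2 and 76.7 in wild type. Of the 10, 2 rose and 2 fell in double knockout against wild type, in Cyp26b1 knockout against wild type 2 rose and 5 fell, and in double knockout against Cyp26b1 knockout 3 rose and 1 fell, with medians of -0.20, -0.45 and 0.14. With the authors' scaling the first count was 1 risen and 3 fallen and the last 2 and 2. With the first normexp correction the counts were 2 risen and 1 fallen, 2 and 2, and 2 and 1. Of 11 fetal ovarian somatic markers 8 were tested. Foxl2, which defines ovarian supporting cells, was well above background on 1 Cyp26b1 knockout array and on no other, and Irx3 and Irx5 on none. The summed level of the ovarian list was 15.2 and 15.6 in double knockout, 14.6 and 10.5 in Cyp26b1 knockout and 13.6 and 13.3 in wild type, with 2 risen and 1 fallen, 2 risen and 3 fallen, and 2 risen and 2 fallen in the 3 comparisons (median log2 differences 0.16, -0.43 and 0.54). With the authors' scaling the first and last counts were each 1 risen and 2 fallen. With the first normexp correction 1, 1 and 2 ovarian markers rose and none fell.

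Sertoli cell markers were read for the labels' tissue, and all 12 were well above background on all 6 arrays. On any 1 array between 62.6% and 69.2% of all spots were well above background, so this is a weak check of the tissue. Of the 12, 1 rose and 3 fell in double knockout against wild type, 3 rose and 3 fell in Cyp26b1 knockout against wild type, and 3 rose and 2 fell in double knockout against Cyp26b1 knockout (median log2 differences -0.066, 0.092 and -0.012). With the authors' scaling these counts were 1 risen and 4 fallen, 5 risen and 2 fallen, and none risen and 6 fallen. With the first normexp correction they were 2 risen and none fallen, 1 risen and none fallen, and none risen and 1 fallen. None fell in double knockout against wild type without the filter on dim probes or without the intensity trend. Their summed level ranged from 159 to 188 in double knockout, from 181 to 189 in Cyp26b1 knockout and from 151 to 169 in wild type. The 5 fetal Leydig cell markers measured summed to between 120 and 138 in double knockout, between 81.2 and 102 in Cyp26b1 knockout and between 141 and 160 in wild type, and none rose and 4 fell in Cyp26b1 knockout against wild type. In double knockout 1 fell against wild type and 3 were higher than in Cyp26b1 knockout (medians -0.28, -0.70 and 0.60, with the Cyp26b1 knockout against wild type second), and with the authors' scaling 3 fell against wild type and 2 were higher than in Cyp26b1 knockout. With the first normexp correction 1 Leydig marker fell in Cyp26b1 knockout against wild type, and 1 was higher in double knockout than in Cyp26b1 knockout. The part of these cell types in the members' differences was not tested. Of 6 endothelial markers, 1 rose in double knockout against wild type, 3 rose and 3 fell in Cyp26b1 knockout against wild type, and 2 rose and 2 fell in double knockout against Cyp26b1 knockout (medians 0.11, 0.18 and 0.059), or 1 and 3 with the authors' scaling. Of 5 blood and macrophage markers, none passed in double knockout against wild type, 2 rose and 2 fell in Cyp26b1 knockout against wild type, and 2 fell in double knockout against Cyp26b1 knockout (medians 0.13, -0.31 and 0.13). In double knockout against wild type 1 fell with the authors' scaling. In Cyp26b1 knockout against wild type the first normexp correction left 2 endothelial markers risen and 1 fallen, and no blood marker risen and 1 fallen.

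The members fell into different patterns over the 6 arrays. Likeness was measured as the root mean square difference between log2 values, each gene centred on its own mean. By this measure, which grows with how much the genes vary, Foxo3 and Ybx2 were the closest pair of members, at 0.225. Sohlh2 and Lhx8 were the farthest apart, at 1.70. By correlation over the 6 arrays Foxo3 and Ybx2 were again the most alike (r = 0.976). The least alike were then Lhx8 and Ybx2 (r = -0.11), while Sohlh2 and Lhx8 had an r of 0.42. Among the named genes nearest to Sohlh2 were Rhox3a (0.312) and Stra8 (0.375). Those nearest to Figla were Slc52a3 (0.126), Slc27a2 (0.127) and Acp7 (0.131).

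The genes nearest to Lhx8 were Slc46a2 (0.333), Spint4 (0.430) and Ccl20 (0.543), which like the dimmer Lhx8 probe were not well above background in wild type. Those nearest to Nobox were Enpp5 (0.0692), Stard6 (0.0735) and Eid2 (0.0805), to Foxo3 Tro (0.0656), Evi5 (0.0657) and Moap1 (0.0760), and to Ybx2 Hipk2 (0.0263), Ankzf1 (0.0269) and Pramel25 (0.0338). Distances are smaller for genes that vary less, so they give no order between members. The 6 arrays share slides by genotype, and these distances describe the arrays only.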

How the data were processed

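Labelled cRNA from 0.20 µg of RNA was hybridised to Agilent one-colour arrays. Scanner output deposited for each array came from Agilent Feature Extraction, which the submitters' processing notes give as 9.5. Its processed signal is a linear spot intensity with the background subtracted, per the file headers. The deposited value table, 1 column per genotype, behaved as a linear ratio. Its log2 differences between genotypes correlated with those of the scanner values (r of at least 0.999995 over 24498 probes), which settles its direction. Its centring and its scaling between arrays stay unknown. Its column medians were 0.959 (double knockout), 1.12 (Cyp26b1 knockout) and 0.99979 (wild type).

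Control spots and outlier spots were left out and spots of a probe averaged, with 25 of 41174 probes dropped. The log2 of the processed signal, less its 75th percentile on that array, was tested in limma 3.58.1 (R 4.3.3; lmFit, eBayes with trend, 3 residual degrees of freedom) in one fit of 6 arrays over 27864 probes, each well above background on the 2 arrays of some genotype. Two-sided p-values took the Benjamini-Hochberg adjustment over all of these probes, with a threshold of 0.05. A gene was read by its brightest probe. Duplicates were biological, per the series design text, though whether embryos were pooled is not stated, so the p-values reflect no more than the spread among these 6 arrays. An exact permutation test of 2 against 2 arrays cannot go below 0.333. For a bound, the brighter mean was divided by the larger of the dim probe's signal and the lowest signal well above background.

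Accessions gave 1 symbol for 23366 probes and none for 17808, by a RefSeq table of GRCm38.p6; the arrays' annotation uses an older build, so no probe coordinates are given. The fit was also run on simulated data, with no outcome given here. The members and lists were chosen with earlier results of these data known. Values are given for all members, both targeted genes and, for each list of factors, the 2 genes with the smallest adjusted p in Cyp26b1 knockout against wild type and the 1 smallest in each other comparison. The 3 genes nearest to each member are named as well, apart from 1 gene that is not reported here. The scanner files hold no mean signal, so the normexp alternatives used the median signal. The alternatives tried are in the closing section.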

Additional observations from a re-analysis of the deposited data

How the results depend on the processing

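Each comparison was rerun with quantile normalization, 2 normexp background corrections (offset 50), the authors' scaling (tested by a choice made after seeing the data), other filters on dim probes, 1 probe per gene or the mean of a gene's probes, eBayes without trend, only the 2 genotypes compared, a replicate block and each array left out. Slide as a block could not be fitted, because each genotype had its own slide. In double knockout against wild type, 3194 probes were called, against 594 with the first normexp correction, 6498 with the authors' scaling, 1916 with no filter and 646 to 3521 with an array left out. In Cyp26b1 knockout against wild type that normexp correction called 4704 probes and 1 member gene, and in double knockout against Cyp26b1 knockout 3657 probes and 2 member genes. Some spots of extreme local background entered that correction. Without them, the second normexp correction called 3, 5 and 3 of the 5 member genes it could test. Foxo3 lacked a usable spot on at least 1 array. With an array left out, 3 member genes were called in double knockout against wild type, 4 to 6 in Cyp26b1 knockout against wild type and 3 to 4 in double knockout against Cyp26b1 knockout.

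Signs turned as follows, and the cause was not tested. In double knockout against wild type, Foxo3 was -0.53 with normexp, -0.040 with the authors' scaling and -0.030 to 0.35 with an array left out; Ybx2 was -0.064, -0.16 and -0.015 to 0.090 in the same settings; Nobox was -0.27 and Lsm14b -0.034 with normexp. In Cyp26b1 knockout against wild type, normexp gave -0.58 for Foxo3, -0.11 and -0.74 for the brighter and dimmer Lhx8 probes and -0.47 for Nobox. In double knockout against Cyp26b1 knockout, Foxo3 was 0.051 with normexp, Figla -0.17 with the authors' scaling and -0.016 to 0.29 with an array left out, and Nobox 0.10 with quantile normalization, 0.19 with normexp and -0.34 to 0.32 with an array left out. The first normexp correction also ended the calls of Figla against wild type in both knockouts, both calls of Ybx2, those of the dimmer Lhx8 probe in double knockout, and of the other genes named those of Sub1, Lhx5, Lsm14b and Padi6 in Cyp26b1 knockout against wild type, Oas1d in double knockout against wild type and Msh5 in Cyp26b1 knockout against either other genotype. Apart from normexp, no member difference that passed the test turned its sign.

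The array numbers in the deposited names were checked as pairs. Deviations of same-numbered arrays correlated at 0.187 (double knockout and wild type), 0.0915 (Cyp26b1 knockout and wild type) and 0.0974 (double knockout and Cyp26b1 knockout), so the numbers were taken as names only. With the replicate block, 3, 5 and 4 member genes and 3626, 15556 and 13508 probes were called in the 3 comparisons. Dim signals limit Foxo3, Nobox and both Lhx8 probes, and 2 arrays per genotype limit every difference.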
